A study of Mus musculus with 12 samples.

Results

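The 37 genes described here act in homologous recombination and in the Fanconi anaemia pathway, with a few close partners. They were chosen by name, and all 37 are among the 24421 genes of the deposited table. They were read in mouse fetal thymocytes at 3 points of early T cell development, with and without a Cre that deletes Bcl6, the gene of a transcriptional repressor. All 37 passed the filter on low values when the 12 libraries were fitted together, and 36 did so among the 4 CD25 libraries, where Dmc1 was too low.

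Every embryo lacked Rag1 and carried loxP-flanked Bcl6 alleles (Bcl6fl/fl) on a C57BL/6 background. KO embryos were LckCre+, and control embryos were LckCre-. The Cre is driven by the Lck promoter, which is active in the T lineage, so presence of Cre and loss of Bcl6 cannot be told apart. Thymi were taken at E16.5 by most labels and at E17.5 by the treatment protocol. There were 6 groups of 2 libraries. CD25 cells were sorted for CD25 from unstimulated thymi of KO and of control embryos. ISP cells, which carry CD8 but not CD4, and DP cells, which carry both, were sorted from KO and control thymi after 2 days on filters with anti-CD3 antibody at 1 µg/ml, which stands in for the signal of the pre-T cell receptor that cells without Rag1 cannot make. Stage and treatment therefore cannot be told apart in any comparison of ISP or DP with CD25. Nothing in the labels says that paired libraries of a group derive from different embryos or cultures, so a p-value here measures only how these samples spread, which may be technical.

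Homologous recombination repairs a broken chromosome by copying its sister. The ends are sensed and cut back, the BRCA proteins prepare the exposed strand to pair with the sister, and helicases and nucleases undo the joints that form. The Fanconi proteins recognise strands that are crosslinked together, attach ubiquitin to FANCD2 and FANCI, and hand the lesion to recombination. Because the sister is needed as template, the pathway works after DNA replication, and many of its genes are known to be transcribed with the cell cycle. Thymocytes divide rapidly as they pass from the CD25 stage through ISP, and DP cells then slow down.

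Recovered reads summed to between 9657633 and 14227980 per library. In 6 of the 8 libraries from anti-CD3 cultures the name used at sequencing conflicts with the title on the population or the genotype, and titles were followed here. Both DP control libraries carry KO names and both ISP KO libraries carry control names. Surface markers check the population only, so the genotype labels behind every KO result in ISP or DP were not checked. Surface marker transcripts separated the populations as titled. Il2ra, which encodes CD25, was at 538 to 603 RPKM (reads scaled per gene and per library) in CD25 libraries and at most 44.7 RPKM elsewhere. Cd4 was at 13.9 to 20.5 RPKM in ISP libraries and at 191 to 344 RPKM in DP libraries. Bcl6 itself was at 2.01 and 1.63 RPKM in CD25 KO against 1.82 and 1.49 RPKM in CD25 control, at 18.9 and 25.1 RPKM in ISP KO against 11.9 and 11.6 RPKM in ISP control, and at 87.7 and 111 RPKM in DP KO against 72.5 and 70.0 RPKM in DP control. Bcl6 was called higher in KO, 1.88-fold in ISP (limma adjusted p = 0.0249) and 1.40-fold in DP (limma adjusted p = 0.0319). The gene total does not separate the flanked exons from the others, so it does not check the deletion.

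Most of the 37 genes stood higher in ISP cells than in CD25 cells, and most stood lower in DP cells than in ISP cells. Their median level, on a log2(RPKM + 1) scale, was 3.08 and 3.11 in CD25 KO libraries against 3.14 and 3.10 in CD25 controls, 3.64 and 3.52 in ISP KO against 3.66 and 3.63 in ISP controls, and 3.21 and 3.25 in DP KO against 3.19 and 3.11 in DP controls. All 4 ISP libraries thus stood above the other 8. Summed without H2afx and Spo11, which outweigh the rest in DP, the remaining genes reached 437 and 446 RPKM in DP KO against 364 and 375 RPKM in DP control, a gap larger than the spread within either pair. These are sorted bulk samples, in which fewer cells of a kind and less RNA per cell cannot be told apart.

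In the fit of all 12 libraries, 27 of the 37 genes rose in ISP over CD25, where 33.1% of all 11303 tested genes did so, and 3 fell, against 30.9% of all genes. Calls here are at a Benjamini-Hochberg adjusted p under 0.05 from limma. The median difference over the 37 was 0.41 on the log2(RPKM + 1) scale, and 0.01 over all tested genes. In DP over ISP, 4 genes rose, against 35.6% of all genes, and 26 fell, against 35.0% of all genes, with a median difference of −0.48 beside 0.01 over all genes. Both steps use the same 4 ISP libraries. In DP over CD25, 13 were higher, against 37.3% of all genes, and 12 were lower, against 38.4%, so the members' shares stood near or below those of all genes. With each library scaled to the same RPKM sum, the median of all genes moved by −0.10 in ISP over CD25 and by 0.15 in DP over ISP, the medians of the 37 became 0.31 and −0.33, and no called member changed sign. Under that scaling the split over all genes was 2792 higher and 4583 lower in ISP over CD25, in place of 3739 and 3489, and 5337 higher and 3027 lower in DP over ISP, in place of 4024 and 3959.

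**Figure D1:**
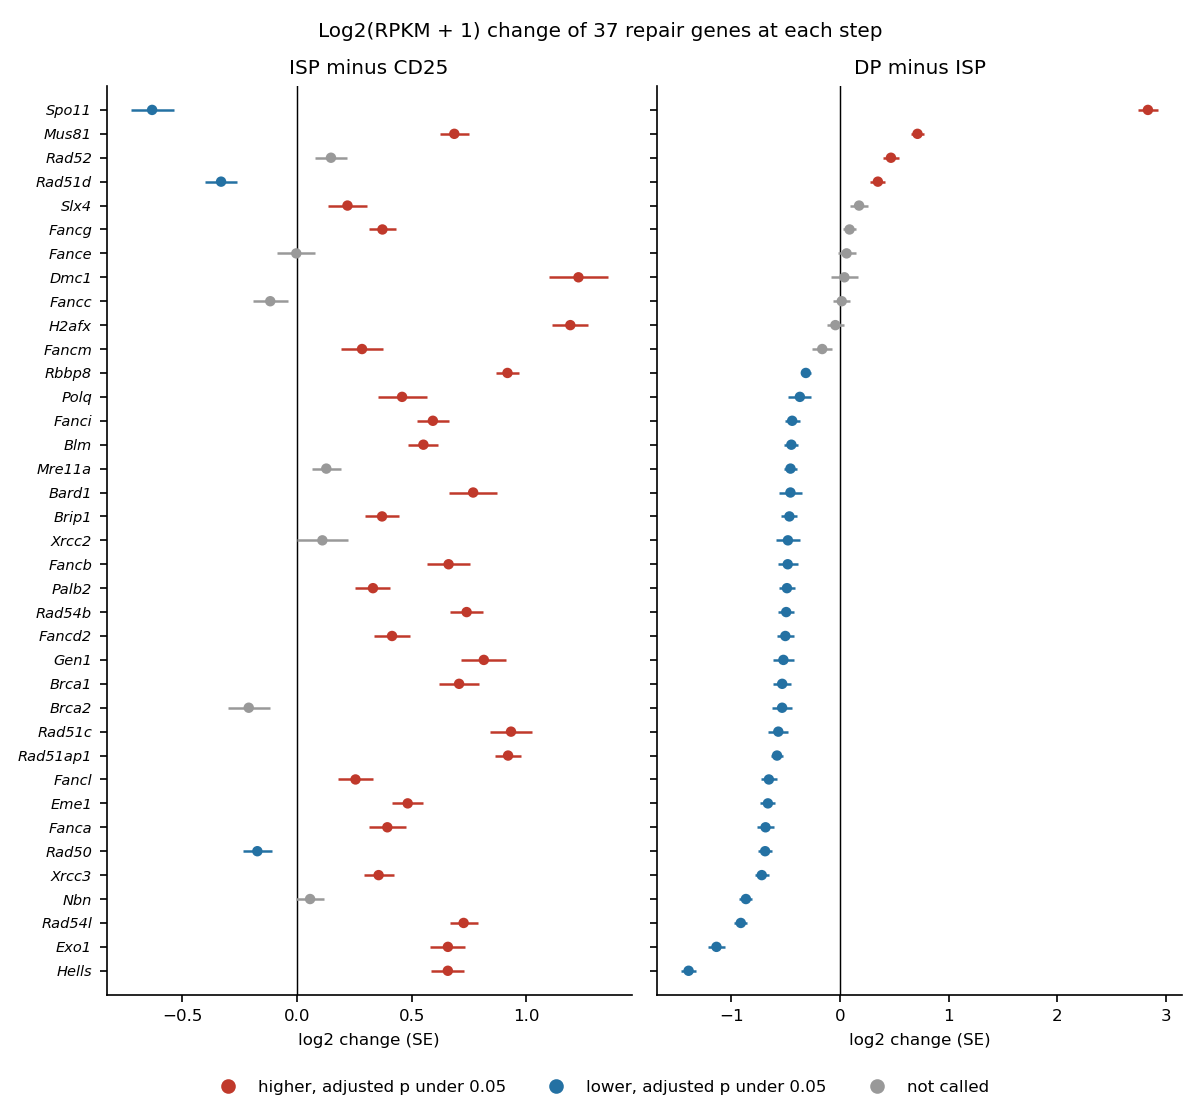
Difference in log2(RPKM + 1) (x axis, with standard error) of each of the 37 genes (y axis) in ISP minus CD25 cells (left) and in DP minus ISP cells (right), each over 4 against 4 libraries. Red points were called higher, blue points lower and grey points not called; 27 are red on the left and 26 are blue on the right, with Spo11 far to the right at 2.84.

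Ranked by mean level over the 12 libraries, the genes ran from Dmc1 at 2.10 RPKM, Bard1 at 2.63 RPKM, Polq at 2.78 RPKM and Rad51c at 2.88 RPKM up to Nbn at 28.4 RPKM and Rad54l at 28.4 RPKM. Above these came Hells, Rad51ap1, Spo11 and H2afx. Reads behind a member's value were fewest for Dmc1, with 13 to 99 recovered reads per library, and most for H2afx, with 3053 to 9177. The low genes are therefore measured with the most counting error.

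Many genes of DNA replication and recombination are known targets of E2F factors, so the promoters of the 37 were searched. 27 of the 37 genes had a window in the RefSeq promoter table, which gives 250 bases before and 50 after the start (build GRCm38.p6). The letters TTTCCCGC, TTTGGCGC, TTTCGCGC and TTTGCCGC, forms of the E2F motif, were searched on both strands. They were found for 6 of the 27 (22.2%), namely Brca2, Bard1, Rad51c, Fancg, Hells and Dmc1, against 2.27% of all 32851 windows, 2.61% of all genes with a window and 5.02% of the 8512 tested genes with one. CCAAT stood in windows of 14 of the 27 genes (51.9%), against 41.1% of genes. The cell cycle homology letters TTTGAA or TTCGAA stood in 4 (14.8%), against 21.7% of genes. The BCL6 motif forms TTCCTAGAA and TTCTTAGAA stood in none of the 27, against 0.977% of genes. All were searched on both strands, TTCGAA reads the same on both, and no motif searched contains another. A match is a description of the letters and not of binding, and no match says only that these letters are not in the window. Of the 6 genes with an E2F match, 5 rose in ISP and 4 fell in DP. Of the 21 searched genes without one, 17 rose in ISP and 15 fell in DP, so most searched genes moved the same way with or without a match. Windows of 3 genes with a match and of Rad51ap1, which has none and had the largest difference between genotypes in DP, are printed 5′ to 3′ on the strand of the gene, with E2F matches in capitals. Hells lies on the plus strand at chr19:38930740-38931039, Rad51c on the minus strand at chr11:87404905-87405204, Dmc1 on the minus strand at chr15:79605060-79605359 and Rad51ap1 on the minus strand at chr6:126939538-126939837.
Hells: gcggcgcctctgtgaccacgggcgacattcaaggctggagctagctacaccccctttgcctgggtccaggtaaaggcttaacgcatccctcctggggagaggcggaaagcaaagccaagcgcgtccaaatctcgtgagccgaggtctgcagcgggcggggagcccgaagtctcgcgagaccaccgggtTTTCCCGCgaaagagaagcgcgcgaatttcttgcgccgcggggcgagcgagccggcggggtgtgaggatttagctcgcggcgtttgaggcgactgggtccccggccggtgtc
Rad51c: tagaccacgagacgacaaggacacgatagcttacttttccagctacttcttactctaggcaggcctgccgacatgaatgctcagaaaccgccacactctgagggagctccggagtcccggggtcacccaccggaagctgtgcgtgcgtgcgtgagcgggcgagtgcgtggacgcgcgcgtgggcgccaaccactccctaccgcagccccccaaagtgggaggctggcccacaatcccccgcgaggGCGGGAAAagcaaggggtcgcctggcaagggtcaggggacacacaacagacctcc
Dmc1: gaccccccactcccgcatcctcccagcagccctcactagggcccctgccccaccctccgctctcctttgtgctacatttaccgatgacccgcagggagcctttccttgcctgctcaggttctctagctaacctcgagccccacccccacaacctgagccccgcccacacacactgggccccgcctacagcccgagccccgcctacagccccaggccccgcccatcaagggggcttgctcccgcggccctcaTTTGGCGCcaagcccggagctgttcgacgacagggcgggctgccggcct
Rad51ap1: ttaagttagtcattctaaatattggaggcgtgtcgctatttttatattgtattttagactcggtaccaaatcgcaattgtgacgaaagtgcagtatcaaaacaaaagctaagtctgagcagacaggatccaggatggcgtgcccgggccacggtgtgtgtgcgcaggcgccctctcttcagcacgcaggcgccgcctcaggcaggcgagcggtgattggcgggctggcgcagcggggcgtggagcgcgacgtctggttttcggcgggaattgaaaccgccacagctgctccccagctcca
The match in Hells begins 62 bases before the RefSeq start, on the strand of the gene. The match in this Rad51c window begins 5 bases before the start and reads on the opposite strand, and the table holds another Rad51c window with a match. In Dmc1 the match begins 1 base after the start base.

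The end sensing and resection genes divided at the first step and fell together at the next. H2afx, Rbbp8 and Exo1 rose in ISP, Rad50 fell, and Nbn and Mre11a were not called. In DP over ISP, 5 of the 6 fell and H2afx was not called. Nbn and Rad50 encode subunits of the complex that first binds a break, with the nuclease of Mre11a as their partner.

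Nbn was at 30.1 and 35.4 RPKM in CD25 KO against 33.8 and 31.5 RPKM in CD25 control. Its ISP level was 34.7 and 34.0 RPKM in KO against 35.3 and 32.0 RPKM in control, and its DP level 21.8 and 22.0 RPKM in KO against 14.6 and 15.5 RPKM in control. CD25 and ISP libraries overlapped, and all 4 DP libraries lay below them. In DP it was 1.84-fold below ISP, a difference of −0.87 ± 0.06 (SE) on the log2(RPKM + 1) scale (limma adjusted p = 7.07e-08). Exo1, the exonuclease of long-range resection, was at 10.0 and 10.3 RPKM in CD25 KO against 10.5 and 10.6 RPKM in CD25 control. It reached 17.7 and 15.5 RPKM in ISP KO against 18.1 and 16.3 RPKM in ISP control, and then 8.27 and 8.48 RPKM in DP KO against 5.35 and 6.80 RPKM in DP control. The 3 populations did not overlap. Exo1 rose by 0.66 ± 0.08 in ISP (limma adjusted p = 1.11e-05) and fell by 1.14 ± 0.08 in DP (limma adjusted p = 5.82e-08).

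Rbbp8, whose product CtIP starts resection, was at 17.5 and 17.1 RPKM in CD25 KO against 16.46 and 15.1 RPKM in CD25 control. It was at 30.6 and 31.6 RPKM in ISP KO against 34.1 and 32.2 RPKM in ISP control, and at 28.8 and 28.9 RPKM in DP KO against 22.2 and 23.2 RPKM in DP control. The CD25 libraries were lowest, and the DP controls stood between them and the rest. Its rise in ISP was 0.92 ± 0.05 (limma adjusted p = 1.17e-08) and its fall in DP −0.31 ± 0.05 (limma adjusted p = 9.11e-05). H2afx encodes histone H2AX, which is phosphorylated around breaks. It was the most abundant of the 37, at 206 and 185 RPKM in CD25 KO against 173 and 230 RPKM in CD25 control. In ISP it was at 453 and 417 RPKM in KO against 479 and 460 RPKM in control, and in DP at 486 and 542 RPKM in KO against 371 and 379 RPKM in control. Every anti-CD3 library was above every CD25 library, with the DP KO pair on top. The rise in ISP was 1.19 ± 0.08 (limma adjusted p = 7.52e-08), while DP over ISP gave −0.04 ± 0.08 and was not called. An annotated miRNA on the opposite strand shares 10.2% of its exonic bases, and the sources do not say whether counting used strand.

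The 5 genes of the BRCA1 to BRCA2 axis moved nearly together. Brca1 and its partner Bard1 form a ubiquitin ligase, Palb2 links Brca1 to Brca2, Brca2 acts on the exposed strand, and Brip1 is a helicase bound by BRCA1. 4 of the 5 rose in ISP by 0.33 to 0.77, Brca2 at −0.21 was not called (with equal RPKM sums it was called lower, at −0.30, limma adjusted p = 0.0122), and all 5 fell in DP by 0.46 to 0.53. Brca1 ranged from 6.60 to 7.68 RPKM in CD25, from 10.5 to 14.1 RPKM in ISP and from 7.07 to 9.43 RPKM in DP.

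Among the 8 strand pairing genes (Rad51c, Rad51d, Xrcc2, Xrcc3, Rad51ap1, Rad52, Rad54l and Rad54b), 5 rose in ISP, and 6 fell in DP. Rad51d and Rad52 did the reverse at the second step, rising by 0.35 ± 0.07 and 0.47 ± 0.07 in DP over ISP (limma adjusted p = 0.000624 and 8.11e-05). RAD52 anneals single strands.

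Rad51ap1, whose product stimulates strand invasion, was at 38.7 and 36.8 RPKM in CD25 KO against 37.9 and 35.6 RPKM in CD25 control. It was at 70.1 and 64.7 RPKM in ISP KO against 74.4 and 76.8 RPKM in ISP control, and at 56.3 and 61.9 RPKM in DP KO against 35.3 and 41.0 RPKM in DP control. The DP controls lay around the level of the CD25 libraries, and the DP KO pair lay between these and ISP. Its rise in ISP was 0.92 ± 0.06 (limma adjusted p = 4.67e-08). Rad54l, which encodes a DNA motor, was at 24.5 and 23.3 RPKM in CD25 KO against 22.3 and 25.4 RPKM in CD25 control. In ISP it was at 37.2 and 37.7 RPKM in KO against 45.6 and 40.5 RPKM in control, and in DP at 24.0 and 25.1 RPKM in KO against 16.7 and 18.7 RPKM in control. All ISP libraries lay above the others, and the DP controls lay below all. It fell by 0.91 ± 0.06 in DP over ISP (limma adjusted p = 5.58e-08), and 15.4% of its exonic bases are shared with Lrrc41 on the opposite strand, a gene of up to 42.7 RPKM, so its value is uncertain to that extent.

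Rad51c, which encodes a partner of XRCC3, was at 1.66 and 1.37 RPKM in CD25 KO against 2.21 and 1.87 RPKM in CD25 control. It was at 3.98 and 4.52 RPKM in ISP KO against 4.62 and 3.99 RPKM in ISP control, and at 3.10 and 3.17 RPKM in DP KO against 2.01 and 2.10 RPKM in DP control. CD25 and ISP did not overlap, and the rise was 0.93 ± 0.09 (limma adjusted p = 2.52e-06). Xrcc3 encodes that partner. It was at 15.2 and 13.5 RPKM in CD25 KO against 12.9 and 12.6 RPKM in CD25 control, at 18.1 and 17.5 RPKM in ISP KO against 16.4 and 18.5 RPKM in ISP control, and at 10.5 and 11.9 RPKM in DP KO against 9.14 and 9.67 RPKM in DP control. The DP libraries were lowest throughout, 1.71-fold below ISP, with a difference of −0.72 ± 0.07 (limma adjusted p = 8.37e-07).

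**Figure D2:**
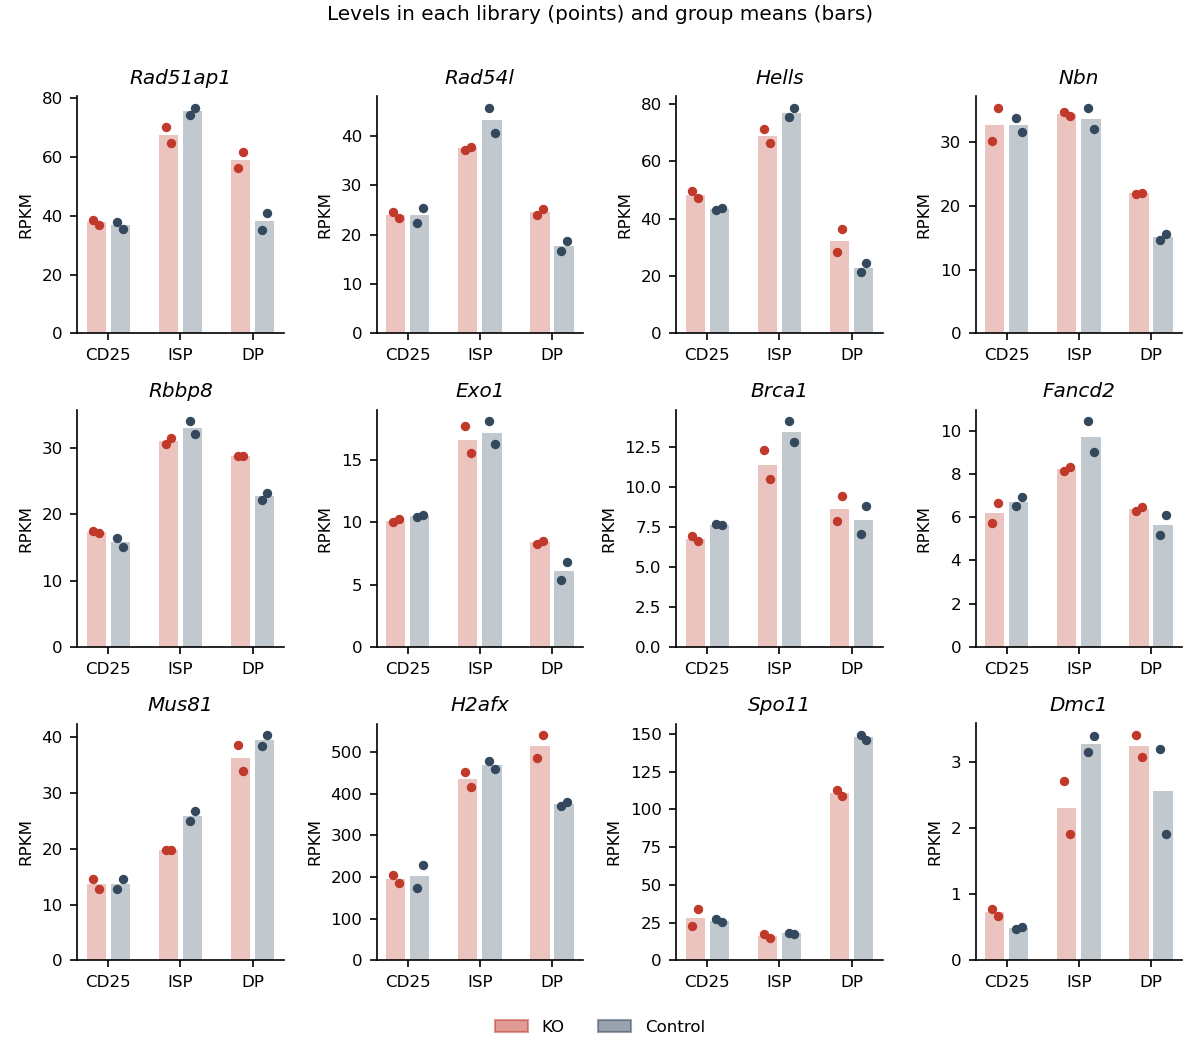
Level in RPKM (y axis, from 0) of 12 of the 37 genes in CD25, ISP and DP cells, KO in red and control in grey; points are the 2 libraries of a group and bars their mean. Most panels have their tallest bar in ISP, and Spo11 and Mus81 are highest in DP. The tallest bar of H2afx is that of DP KO, and the points of Dmc1 overlap between ISP and DP. In DP the KO points of Rad51ap1, Rad54l, Hells, Nbn, Rbbp8, Exo1 and H2afx lie above the control points.

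The 2 genes of meiotic recombination parted at the first step, where Spo11 fell and Dmc1 rose. Spo11 encodes the enzyme that cuts chromosomes at the start of meiosis, and Dmc1 an enzyme that pairs the cut strands in meiosis. Spo11 was at 22.9 and 33.9 RPKM in CD25 KO against 27.2 and 25.2 RPKM in CD25 control, and at 17.3 and 15.1 RPKM in ISP KO against 18.2 and 17.7 RPKM in ISP control. In DP it reached 112.5 and 109 RPKM in KO against 149 and 146 RPKM in control. All DP libraries were thus far above any other library, and the ISP libraries were lowest. It fell by 0.63 ± 0.09 in ISP (limma adjusted p = 9.03e-05) and rose 7.56-fold in DP over ISP, by 2.84 ± 0.09 on the log2 scale (limma adjusted p = 2.77e-10), the largest difference of the 37 at that step. Dmc1 was at 0.786 and 0.670 RPKM in CD25 KO against 0.471 and 0.504 RPKM in CD25 control. Its ISP level was 2.71 and 1.91 RPKM in KO against 3.17 and 3.40 RPKM in control, and its DP level 3.42 and 3.08 RPKM in KO against 3.21 and 1.92 RPKM in control. All anti-CD3 libraries stood above all CD25 libraries and overlapped each other. The rise in ISP was 1.23 ± 0.13 (limma adjusted p = 4.35e-06), on a low level.

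Of 6 germ cell markers, 4 were under 1 RPKM in both libraries of every group, among them Ddx4 at most 0.354 RPKM, Dazl at most 0.116 RPKM and Dppa3 at most 0.105 RPKM. The other 2 were Nanos3, at 1.73 to 3.90 RPKM in every library, and Kit, which early thymocytes also express, at 11.0 to 11.6 RPKM in CD25, 3.08 to 4.73 RPKM in ISP and 0.853 to 1.79 RPKM in DP. The 6 together summed to 14.2 to 15.3 RPKM in CD25 KO against 15.1 to 15.4 RPKM in CD25 control, to 6.81 RPKM in both ISP KO libraries against 4.90 to 7.66 RPKM in ISP control, and to 2.69 to 3.69 RPKM in DP KO against 4.28 to 4.38 RPKM in DP control. The synaptonemal complex gene Sycp1 was at 0 in all 12, and Sycp3 was at most 0.372 RPKM. Of 31 other meiotic genes listed, 27 were in the table and 11 passed the filter. In DP over ISP 2 of these 11 rose, against 35.6% of all genes, and 4 fell, against 35.0%. Syce2, of the synaptonemal central element, averaged 32.0 RPKM in DP and 88.2 RPKM in ISP and fell by 1.47 (limma adjusted p = 3.77e-10). Mnd1, which works with Dmc1 in meiosis, averaged 2.55 RPKM in DP and 6.87 RPKM in ISP and fell by 1.19 (limma adjusted p = 6e-07). The 2 that rose were Mei4 and Rec8, named after their values were seen. Mei4, which acts with Spo11 in meiotic cutting, averaged 1.80 RPKM in DP and 0.851 RPKM in ISP and rose by 0.60 (limma adjusted p = 0.000908). Rec8, a meiotic cohesin subunit, averaged 3.25 RPKM in DP and 1.84 RPKM in ISP and rose by 0.56 (limma adjusted p = 0.00232). Unlike those of Spo11, its DP and ISP libraries overlapped, at 1.99 RPKM in DP control library 2 and 2.14 RPKM in ISP KO library 2. Like Spo11, Rec8 had fallen in ISP over CD25, by −0.72 (limma adjusted p = 0.000463).

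In the Fanconi pathway, 7 of the genes encode the core complex and FANCM, which brings it to DNA. Of these 5 rose in ISP, by 0.26 to 0.66, and Fancc and Fance were called at neither step. With equal RPKM sums Fancl and Fancm lost the ISP call (limma adjusted p = 0.0893 and 0.113) and Fancc was called lower in ISP (−0.22, limma adjusted p = 0.0263). In DP over ISP that scaling called Fance (0.22, limma adjusted p = 0.0285) and Fancg (0.26, limma adjusted p = 0.00328) higher. 3 of these 7 fell in DP, namely Fanca, Fancb and the ubiquitin ligase gene Fancl, by 0.69, 0.48 and 0.65. Fancd2 and Fanci, whose products receive the ubiquitin, both rose in ISP, by 0.41 and 0.59, and fell in DP, by 0.50 and 0.44. Fancd2 ranged from 5.72 to 6.91 RPKM in CD25, from 8.13 to 10.4 RPKM in ISP and from 5.19 to 6.49 RPKM in DP. Parts of Fanca, Fanci, Fancl and Fancc, between 10.5% and 18.6% of their exonic bases, overlap other genes, which makes these values less certain.

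The helicase and junction nuclease genes all rose in ISP, by 0.22 to 0.81. With equal RPKM sums Slx4, a scaffold for these nucleases, lost that call (0.12, limma adjusted p = 0.278) and was called higher in DP over ISP (0.33, limma adjusted p = 0.00663). Gen1, a nuclease that cuts joined chromosomes apart, was at 2.46 and 2.58 RPKM in CD25 KO against 3.42 and 2.80 RPKM in CD25 control. It was at 5.22 and 5.17 RPKM in ISP KO against 5.53 and 6.95 RPKM in ISP control, and at 3.81 and 3.56 RPKM in DP KO against 4.11 and 3.19 RPKM in DP control. CD25 and ISP did not overlap, and the rise was 0.81 ± 0.10 (limma adjusted p = 1.49e-05). Blm, the helicase that dissolves double junctions, and Eme1 fell in DP with Gen1. Mus81, the nuclease partner of Eme1, was the exception. It ranged from 12.8 to 14.6 RPKM in CD25, from 19.8 to 26.7 RPKM in ISP and from 33.9 to 40.4 RPKM in DP, with no overlap, and rose by 0.69 ± 0.06 and then by 0.71 ± 0.06 (limma adjusted p = 1.75e-06 and 7.94e-07). It is named for this pattern, which was chosen after its values were seen. Eme1 shares 8.00% and 2.71% of its exonic bases with Lrrc59 and Mrpl27, which reach 113 and 86.0 RPKM.

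Hells encodes a chromatin remodeller tied to DNA methylation, and Polq a polymerase that joins ends by short matches. Hells was at 49.5 and 47.0 RPKM in CD25 KO against 42.9 and 43.8 RPKM in CD25 control. ISP libraries held 71.2 and 66.4 RPKM in KO against 75.2 and 78.6 RPKM in control, and DP libraries 28.3 and 36.2 RPKM in KO against 21.2 and 24.4 RPKM in control. The 3 populations did not overlap. It fell 2.64-fold in DP over ISP, by 1.39 ± 0.07 on the log2 scale (limma adjusted p = 5.94e-09), the largest fall of the 37. Polq was between 1.74 and 3.73 RPKM throughout, rising by 0.46 in ISP and falling by 0.37 in DP, a fall that was not called with equal RPKM sums.

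Between genotypes, 12 of the 37 genes were called in DP cells and none in CD25 or ISP cells. In CD25 KO against CD25 control none of the 36 tested genes was called higher or lower, where 0.00940% of all 10636 tested genes were called higher and 0.00940% lower. At an unadjusted p under 0.05 from limma 3 were lower, and voom on recovered reads called 0. In ISP KO against ISP control none of the 37 was called, where 0.257% of all genes were called higher and 0.0973% lower. At an unadjusted p under 0.05, 2 were lower, and voom again called 0. The median difference in ISP was −0.11 over the 37, with 31 of 37 below 0, and −0.01 over all genes. The ISP difference farthest from 0 beyond its standard error was that of Mus81, at −0.37 ± 0.09 (limma adjusted p = 0.1).

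In DP KO against DP control 11 of the 37 genes were called higher, where 14.1% of all genes were, and 1 was called lower, where 7.78% were. The share of members called higher is above that of all genes and the share called lower below it. The median difference was 0.21 over the 37, with 30 of 37 above 0, and 0.00 over all genes. With equal RPKM sums these medians became 0.12 and −0.08, and 7 of the 37 changed sign, all of them uncalled. The genes called higher were Rad51ap1, Nbn, Hells, H2afx, Rad54l, Rad51c, Rad54b, Exo1, Brip1, Rbbp8 and Eme1, and the gene called lower was Spo11. By role, 4 of 6 resection genes, 4 of 8 strand pairing genes, 1 of 5 genes of the BRCA1 to BRCA2 axis and none of 9 Fanconi genes were higher. Bard1 at 0.42 ± 0.15 (limma adjusted p = 0.0629) and Fanca at 0.31 ± 0.12 (limma adjusted p = 0.0724) missed the threshold.

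The largest difference was in Rad51ap1, 1.55-fold higher in KO, by 0.62 ± 0.08 on the log2 scale (limma adjusted p = 0.000577). Nbn was 1.46-fold higher, by 0.51 ± 0.08 (limma adjusted p = 0.00197), Rad54l by 0.45 ± 0.09 (limma adjusted p = 0.00429) and Hells by 0.47 ± 0.10 (limma adjusted p = 0.00746). In each of these genes both DP KO libraries, given above, were higher than both DP controls. H2afx was higher by 0.45 ± 0.11 (limma adjusted p = 0.0139) and Rbbp8 by 0.33 ± 0.07 (limma adjusted p = 0.00656). Brip1 was at 7.37 and 7.54 RPKM in DP KO against 5.52 and 5.27 RPKM in DP control, and was higher by 0.40 ± 0.10 (limma adjusted p = 0.0181). In ISP it was at 9.22 and 8.17 RPKM in KO against 9.18 and 10.1 RPKM in control, and in CD25 at 6.51 and 6.59 RPKM in KO against 7.79 and 6.59 RPKM in control, where the genotypes overlapped or met. Rad54b, a relative of Rad54l, was at 6.75 and 7.47 RPKM in DP KO against 5.34 and 4.73 RPKM in DP control, and was higher by 0.43 ± 0.10 (limma adjusted p = 0.0133). In ISP it was at 9.07 and 8.62 RPKM in KO against 9.43 and 8.32 RPKM in control, and in CD25 at 4.84 and 5.14 RPKM in KO against 4.88 and 4.74 RPKM in control. It shares 35.8% of its exonic bases with Fsbp on the same strand, which was at most 0.388 RPKM. Spo11 was 1.33-fold lower in DP KO, by −0.41 ± 0.13 (limma adjusted p = 0.0458), with no overlap between the genotypes. Its call is lost when any of 10 of the 12 libraries is left out, those of CD25 KO being the exceptions.

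The number of members called higher in DP KO depends on single libraries. It was 5 without DP KO library 2, 4 without DP control library 1 and 6 without DP control library 2. Rad51ap1, Nbn and Rad54l stayed called in each of these, and in every other setting except a grouping by library name. With each library scaled to the same RPKM sum, 7 members were higher and 1 lower, with Exo1, Brip1, Rad51c and Eme1 no longer called, and over all genes the split was 953 higher and 1771 lower in place of 1597 higher and 879 lower. That scaling moved the median of all genes by −0.09 on the log2 scale in this comparison and turned the sign of no called member.

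**Figure D3:**
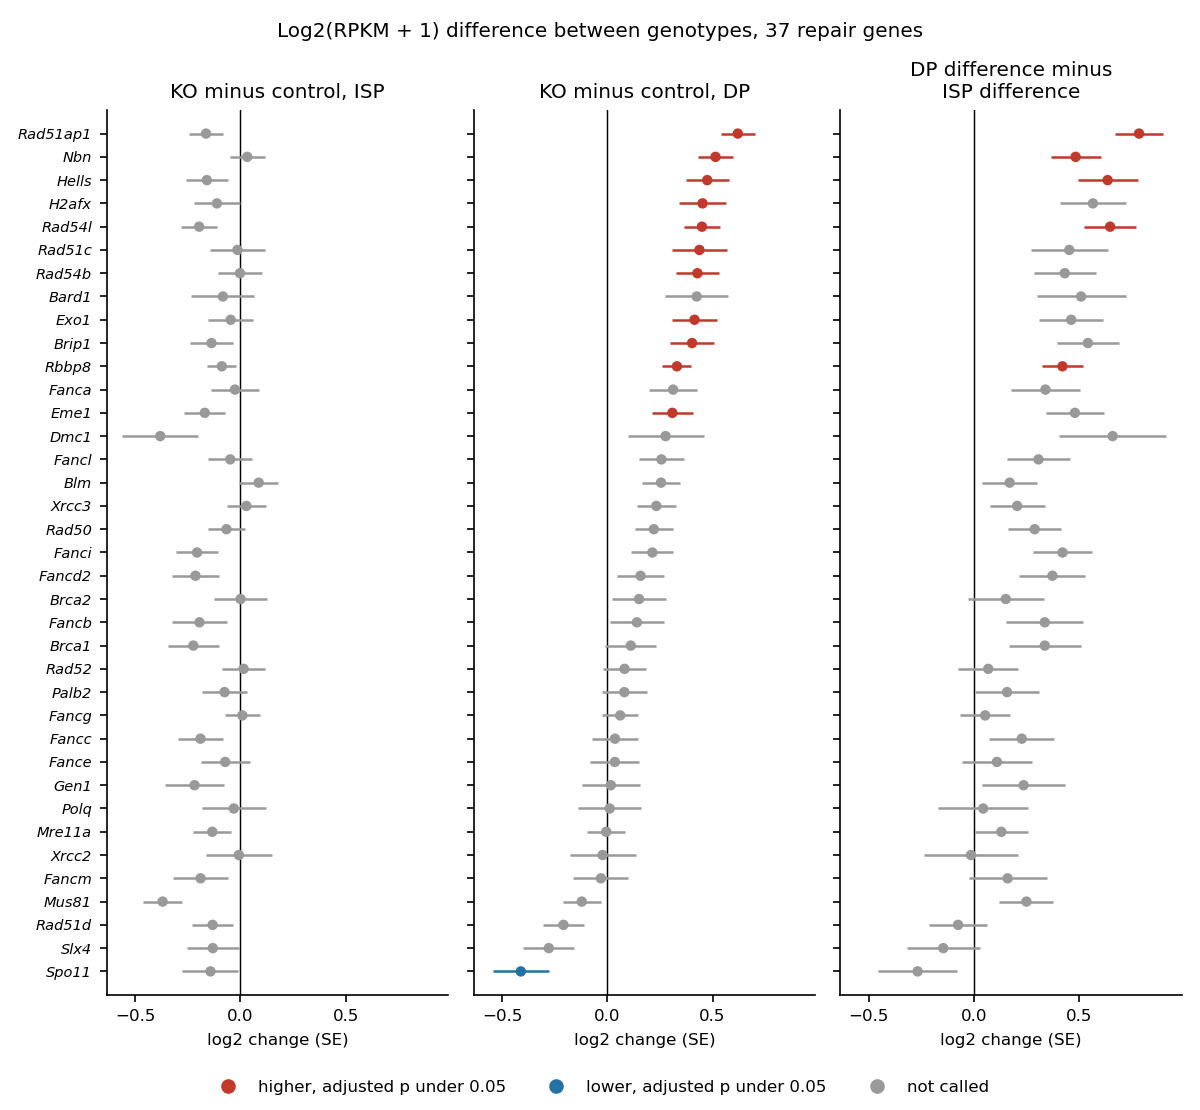
KO minus control difference in log2(RPKM + 1) (x axis, with standard error) of the 37 genes (y axis) in ISP cells (left) and DP cells (middle), and the DP difference minus the ISP difference (right); 2 libraries per genotype. Red was called higher, blue lower and grey not called, and 11 points are red and 1 is blue in the middle against 5 red on the right.

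The entry into DP can also be read within each genotype, from the same libraries. DP over ISP gave 19 lower genes in KO, against 28.0% of all genes, and 27 in control, against 32.4%. 4 were higher in each, against 27.8% of all genes in KO and 31.5% in control. The median difference was −0.32 in KO and −0.64 in control. Rad51ap1 gave −0.19 ± 0.08 in KO, not called (limma adjusted p = 0.0661), and −0.97 ± 0.08 in control (limma adjusted p = 6.53e-07). Rad54l gave −0.59 ± 0.09 in KO and −1.24 ± 0.09 in control, and Hells −1.08 ± 0.10 in KO and −1.71 ± 0.10 in control. Spo11 gave 2.70 ± 0.13 in KO and 2.97 ± 0.13 in control. All of these use the DP libraries that also enter the comparison of KO with control in DP.

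The test of the difference itself, the KO difference in DP minus that in ISP, called 5 members higher, where 3.67% of all genes were, and none lower, where 0.522% were. At an unadjusted p under 0.05, 16 were higher and none lower, and voom called 8 higher and 0 lower. The median over the members was 0.31. With equal RPKM sums that median became 0.20, and 3 members changed sign, all of them uncalled. Rad51ap1 had 0.78 ± 0.11 (limma adjusted p = 0.00957), Rad54l 0.65 ± 0.12 (limma adjusted p = 0.0158), Hells 0.63 ± 0.14 (limma adjusted p = 0.033), Rbbp8 0.42 ± 0.10 (limma adjusted p = 0.0357) and Nbn 0.48 ± 0.12 (limma adjusted p = 0.0441). In all 5 except Nbn, ISP KO averaged below ISP control while DP KO averaged above DP control. This count too depends on single libraries and on scaling. It was 2 with equal RPKM sums, namely Rad51ap1 and Rad54l, where the split over all genes was 195 higher and 100 lower in place of 415 and 59. It was 1 without either ISP KO library, without ISP control library 1, without DP KO library 2 or without DP control library 1, 2 without ISP control library 2, and 3 without DP control library 2.

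Other repair and cell cycle genes moved beside the 37. Of 42 tested other genes of homologous recombination and the Fanconi pathway, 21 rose and 8 fell in ISP, 7 rose and 25 fell in DP over ISP, and 13 were higher and 1 lower in DP KO. Their medians were 0.17, −0.27 and 0.19. Among all tested genes 33.1% rose and 30.9% fell in ISP, and 35.6% rose and 35.0% fell in DP over ISP. Higher in DP KO were 14.1% of all genes, and lower 7.78%. Ube2t, the enzyme that supplies ubiquitin for FANCD2, averaged 79.4 RPKM in DP KO and 58.2 RPKM in DP control, a difference of 0.44 (limma adjusted p = 0.00153). Rpa2, of the complex that coats single strands, averaged 74.7 RPKM in DP KO and 56.2 RPKM in DP control, a difference of 0.40 (limma adjusted p = 0.00132). End joining genes, the other main route of break repair, gave no such pattern. Of 16, 5 rose and 7 fell in ISP, 6 rose and 8 fell in DP over ISP, and in DP KO 1 was higher and 2 lower. Lig4, the ligase of that route, averaged 33.6 RPKM in DP and 19.1 RPKM in ISP and rose by 0.78 (limma adjusted p = 6.43e-08), and within DP it averaged 29.3 RPKM in KO and 37.8 RPKM in control (limma adjusted p = 0.00722). Dclre1c, the nuclease Artemis, averaged 17.7 RPKM in DP and 6.16 RPKM in ISP and rose by 1.38 (limma adjusted p = 4.22e-09). Parp1, which binds broken ends, averaged 44.0 RPKM in DP and 80.1 RPKM in ISP and fell by 0.85 (limma adjusted p = 1.3e-08). Xrcc5, which encodes the Ku80 subunit of the end-binding complex, averaged 14.4 RPKM in DP and 28.7 RPKM in ISP and fell by 0.95 (limma adjusted p = 1.49e-08).

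Genes of the cell cycle were called beside the repair genes. Of 30 S phase genes, 27 rose and none fell in ISP with a median of 0.66, all 30 fell in DP over ISP with a median of −0.92, and 29 were higher and none lower in DP KO with a median of 0.49. Pcna, the sliding clamp of replication, averaged 334 RPKM in DP KO and 216 RPKM in DP control (limma adjusted p = 0.000291). Of 25 genes of G2 and mitosis, all rose in ISP, 3 rose and 11 fell in DP over ISP with a median of −0.10, smaller than the shift that scaling gave there, and 22 were higher in DP KO with a median of 0.41. In the interaction test 23 of the 30 and 18 of the 25 were higher, with medians of 0.56 and 0.52 beside 0.31 for the 37. The direction of the repair genes in DP KO is thus shared with both cell cycle lists, and their part in the result was not tested.

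**Figure D4:**
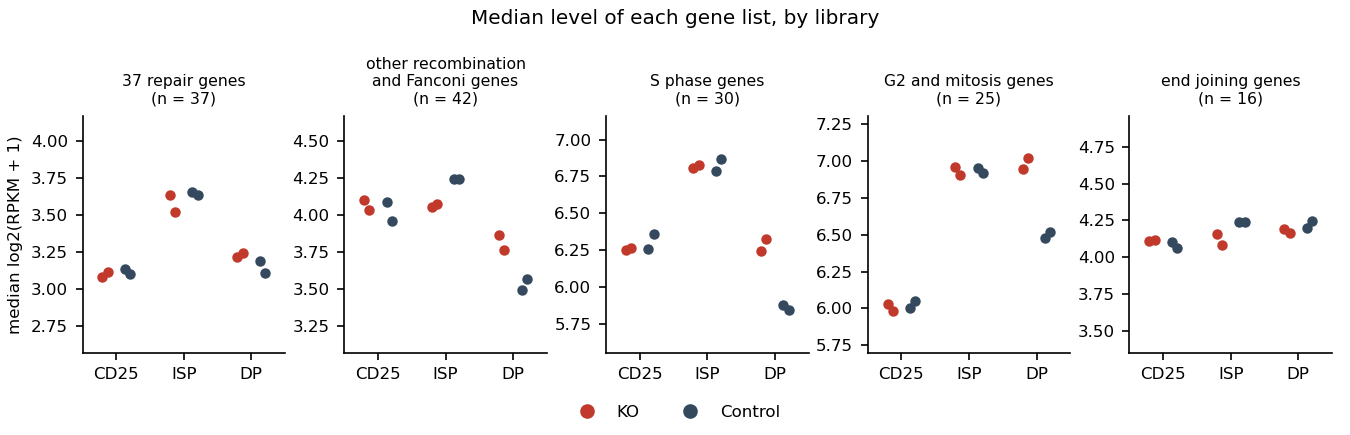
Median log2(RPKM + 1) level (y axis; each panel spans the same range) of the 37 genes and of 4 other gene lists in each library, KO in red and control in grey, by population (x axis). The 37 genes peak in ISP at 3.52 to 3.66, and S phase genes also peak in ISP. In DP control the S phase genes, at 5.88 and 5.85, lie below all CD25 libraries, while the 37 genes do not. G2 and mitosis genes stay high in DP KO, and end joining genes change least.

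Markers of other cells also differed between the genotypes and between the stages. The 8 myeloid markers summed to 52.9 and 80.7 RPKM in DP KO against 14.0 and 19.9 RPKM in DP control, as lowest and highest library, led by Lyz2, and none of the 8 was at 0 in both DP KO libraries while 1 was in both DP controls. They summed to 44.2 and 59.9 RPKM in ISP KO against 17.4 RPKM in both ISP controls. In CD25 they summed to 40.3 and 40.6 RPKM in KO against 23.3 and 28.3 RPKM in control. The 6 mast cell markers summed to 29.4 and 34.5 RPKM in ISP KO against 13.1 and 17.3 RPKM in ISP control. Their CD25 sums were 35.0 and 39.9 RPKM in KO against 35.0 and 35.2 RPKM in control. Their DP sums were 0.853 and 3.17 RPKM in KO against 2.57 and 2.69 RPKM in control. The 9 NK and innate markers summed to 177 and 218 RPKM in DP KO against 112 and 126 RPKM in DP control. Most of that sum is Gzma, at an average of 166.5 RPKM in DP KO and 98.3 RPKM in DP control (limma adjusted p = 0.000993), and of the 8 tested markers Gzma and Tyrobp were called higher, with the other 6 not called. Nkg7 averaged 14.0 RPKM in DP KO and 13.2 RPKM in DP control, and Ncr1, which defines NK cells, 0.036 RPKM in DP KO and 0.534 RPKM in DP control. The same 9 markers summed to 1130 and 1164 RPKM in ISP KO against 1036 and 1254 RPKM in ISP control. Their CD25 sums were 692 and 780 RPKM in KO against 592 and 623 RPKM in control. Gzma averaged 880 RPKM in ISP and 420 RPKM in CD25. Ncr1 averaged 8.89 RPKM in ISP, 0.285 RPKM in DP and 0.484 RPKM in CD25. The 3 measured gamma delta T cell markers summed to 41.6 and 48.3 RPKM in ISP KO against 39.3 and 55.1 RPKM in ISP control. In CD25 these summed to 41.4 and 42.5 RPKM in KO against 30.2 and 31.9 RPKM in control. In DP the sums were 2.25 and 2.54 RPKM in KO against 1.66 and 1.79 RPKM in control. Of the 7 tested myeloid markers, 4 were called higher in DP KO, namely Lyz2, Fcgr3, Csf1r and Adgre1. Cd68, Itgam and Mpo were not called. Itgam averaged 1.74 RPKM in DP KO and 2.09 RPKM in DP control, and Mpo 0.017 and 0.120 RPKM. Csf1r, a marker of macrophages, was at 0.757 and 2.23 RPKM in DP KO against 0.343 and 0.317 RPKM in DP control (limma adjusted p = 0.0258). Adgre1 was at 0.718 and 1.62 RPKM in DP KO against 0.351 and 0.076 RPKM in DP control (limma adjusted p = 0.0191). Cd4 itself was lower in DP KO, at an average of 220.0 RPKM against 341 RPKM in DP control (limma adjusted p = 0.0253). The part of these cells in the differences of the 37 genes, between genotypes or between stages, was not tested.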

How the data were processed

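RNA of 12 sorted thymocyte libraries, 2 in each of 6 groups, was sequenced. The deposited table gives each gene's RPKM as the authors made it. The submitters' processing notes name BWA and GRCm38. Counter, annotation, strand setting and filters were not given in the sources used here. The values behave as reads divided by a step per gene and library: all 169595 values above 0 came out as whole reads within 0.02 (100%), though 1165 genes above 0 in 1 library only are whole by construction. Many multipliers were tried for each gene, so genes above 0 in only a few libraries can also pass by chance. The 100% is therefore partly set by the search. Median-of-ratios factors deviated from 1 by at most 0.00762, so the deposited values are already on that scale. The table has 24421 rows and 3 empty columns. 27 names look like dates and 2 names are repeated, and no result rests on these. Squared differences between the libraries of a group were 3.38 to 7.65 times the sampling variance, so no pair was counted as a single library. This does not tell separate samples from repeat preparations of 1 sample.

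Values were tested as log2(RPKM + 1), a scale that understates changes of low genes, by limma-trend (limma 3.58.1, R 4.3.3). A gene was tested if 2 or more libraries of the fit had 1 RPKM or more. KO and control CD25 cells were compared in their 4 libraries (10636 genes, 2 residual degrees of freedom), and everything else in a model of the 6 groups (11303 genes, with 6 degrees of freedom left). Calls are at a Benjamini-Hochberg adjusted p under 0.05 over all tested genes. The procedure was checked on simulated data. Gene positions and exonic overlaps are from GENCODE on GRCm38, matched by symbol for all 37 genes, and promoters from RefSeq on GRCm38.p6. Figures used Python 3.11.15, pandas 2.3.3, numpy 2.4.6 and matplotlib 3.10.9.

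The 37 genes and the gene lists were chosen with earlier results of these data known. Genes given with full values are those called between genotypes or in the interaction (the 8 with the smallest p where more were called), the 6 called with the largest difference at each step, and from each other list up to 4 with the smallest p. Alternatives were another pseudocount (0.1), no filter, equal RPKM sums, limma voom on recovered reads, the replicate number as a block, groups by library name, and each library left out. Same-numbered libraries did not deviate together (correlations of −0.066 to 0.125), so replicate numbers pair nothing. Recovered reads give counting error only.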

Additional observations from a re-analysis of the deposited data

Results flagged for a closer look

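5 genes are listed because their KO minus control difference in DP cells differed from that in ISP cells by a test of the difference itself, in limma with Benjamini-Hochberg adjustment over all genes. On the log2(RPKM + 1) scale the difference between the differences was 0.78 for Rad51ap1 (adjusted p = 0.00957), 0.65 for Rad54l (adjusted p = 0.0158), 0.63 for Hells (adjusted p = 0.033), 0.48 for Nbn (adjusted p = 0.0441) and 0.42 for Rbbp8 (adjusted p = 0.0357). In DP, KO was above control by 0.62, 0.45, 0.47, 0.51 and 0.33 in that order of genes. In ISP the same differences were −0.16, −0.20, −0.16, 0.03 and −0.09. In these 5 genes both DP KO libraries were higher than both DP control libraries. Groups of 2 libraries are too small for a check of single outlying libraries.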

How the results depend on the processing

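The groups follow the titles. Groups by library name mix the populations that Cd4 separates: DP KO by name had 249 and 344 RPKM of Cd4 against 13.9 and 17.4 RPKM in DP control by name, and ISP KO by name 191 and 338 RPKM against 20.5 and 18.8 RPKM in ISP control by name. Values by name therefore also contrast libraries with DP and ISP levels of Cd4, and do not test the genotype alone. Grouped so, ISP KO had 3 members higher and 21 lower, DP KO had 4 higher and 24 lower, 17 rose in ISP over CD25, 0 rose and 0 fell in DP over ISP, 3 fell in DP over CD25, and the interaction called 0. In DP KO the named members then turned to −0.47 (Brip1), −0.13 (H2afx), −1.54 (Hells), −0.93 (Nbn), −0.68 (Rad51ap1), −0.55 (Rad54b), −1.01 (Rad54l) and −0.34 (Rbbp8). In the interaction they turned to −0.29 (Hells), −0.13 (Nbn), −0.21 (Rad51ap1), −0.19 (Rad54l) and −0.051 (Rbbp8), and Nbn in DP over ISP to 0.018. With the 4 anti-CD3 libraries whose title and name give the same population, an alternative added after seeing the data, no step count moved by over 1.5 times. With equal RPKM sums 7 members were higher in DP KO, the interaction called 2, 7 rose in DP over ISP and 5 fell in ISP over CD25. Members lower in DP KO numbered 0 with a pseudocount of 0.1, 0 with no filter and 0 with the replicate block, where Spo11 had an adjusted p of 0.0567 from limma. Under the replicate block Nbn also left the interaction (limma adjusted p = 0.0525), and no other named member lost its call. The interaction called 3 with no filter and 8 with voom. With single libraries left out, members higher in DP KO numbered 4 to 11, members lower 0 to 1, and the interaction called 1 to 7. DP over ISP stayed at 4 higher and 26 lower. Of the causes of these shifts, none was tested. 2 libraries per group limit every comparison between genotypes, and in low genes such as Dmc1, with as few as 13 reads in a library, counting error adds to this.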
